A study of Homo sapiens with 8 samples.

Results

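The 8 long non-coding RNAs NEAT1, MALAT1, MIR210HG, H19, PVT1, TUG1, NORAD and MEG3 were followed through an RNA sequencing experiment in SK-N-MC, an established Ewing sarcoma cell line. They were chosen by name, as transcripts tied to hypoxia or known for their abundance, and are 8 of the 60332 genes of the expression table. This choice and that of all gene lists were made with earlier results of these data known. Counts of calls set beside shares of all genes are therefore descriptions. Silenced cells carried a lentivirus for dCas9-KRAB, a dead Cas9 fused to a repressor domain, were selected with puromycin and were used within 5 passages of that selection. The study describes the silenced cells as polyclonal pools. Its text calls the control cells of this experiment parental and does not say which vector, if any, they carried. In eKD1 and eKD2 cells, an independent guide for each brought the repressor to the GGAA repeat that acts as an enhancer of LOXHD1. The control was kept in normoxia or at 1% oxygen for 16 h, and eKD1 and eKD2 cells at 1% oxygen for 16 h. Each of these 4 groups had 2 libraries, described as biological duplicates, and normoxic eKD cells were not analysed here.

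Long non-coding RNAs act mainly as RNA rather than through a protein they encode. Some build nuclear bodies, as NEAT1 does for paraspeckles, and some hold proteins or small RNAs away from their targets, as NORAD does for the RNA-binding protein PUM2. Others are precursors, since MIR210HG and H19 each carry a microRNA in their transcript. In low oxygen the hypoxia-inducible factors (HIF) bind DNA at a core that reads ACGTG or GCGTG and raise the transcription of nearby genes, among which the locus of miR-210 is a well known case.

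Levels were FPKM, fragments per kilobase after scaling for library size, so that levels of different genes can be set side by side per length. The scaling between libraries is not given in the sources used here. Relative to replicate 1 of control hypoxia (100%), the depth of the other libraries ran from 55.7% in replicate 2 of control normoxia to 96.1%, and the absolute depth is unknown. All 8 genes of the Ewing sarcoma marker list were at 1 FPKM or more in every library, and their summed level was 1360 to 1377 FPKM in control normoxia, 1211 to 1220 FPKM in control hypoxia, 1405 to 1520 FPKM in eKD1 and 1350 to 1362 FPKM in eKD2. In hypoxia 6 of these 8 were called lower and 1 higher (median -0.561), from LIPI (-2.17, limma adjusted p = 0.00665) to CD99 (0.38, limma adjusted p = 0.0154), and in eKD2 3 were higher, NR0B1 the most (1.06, limma adjusted p = 0.0273), and CD99 was lower (-0.34, limma adjusted p = 0.0339). CD99 was not called in hypoxia with equal FPKM totals (limma adjusted p = 0.076). Its eKD2 call was lost when any 1 library was omitted, and that of NR0B1 without either control hypoxia library or eKD2 replicate 2. The 6 mesenchymal markers were present throughout and summed to 359 to 360.1 FPKM in normoxia and 524.8 to 538.9 FPKM in control hypoxia, with THY1 changed the most (1.33, limma adjusted p = 0.00548). Of 5 leukocyte markers, CD3E was listed at 0 in every library and CD14 and LYZ were below 1 FPKM throughout. CD79A, which the study also names as an Ewing sarcoma-specific gene, was above 1 FPKM in every library. It was at 11.03 and 11.07 FPKM in normoxia and 14.21 and 17.39 FPKM in control hypoxia, a rise that limma did not call. The list summed to 33.86 to 35.57 FPKM in normoxia and 19.27 to 22.97 FPKM in control hypoxia, a shift carried by PTPRC, which was at 22.5 and 23.8 FPKM in normoxia and 4.87 and 5.39 FPKM in control hypoxia (-1.98, limma adjusted p = 0.00684), and was higher in eKD2 than in control hypoxia (1.28, limma adjusted p = 0.0287). Of 5 epithelial markers, 1 was at 1 FPKM or more throughout, and the list summed to 3.724 to 11.61 FPKM. The part of these marker shifts in the results below was not tested. The targeted gene LOXHD1 was lower in both knockdowns, by a log2 difference of -2.44 in eKD1 (SE 0.0958, limma adjusted p = 0.0371) and -2.87 in eKD2 (SE 0.0657, limma adjusted p = 0.00617). Without the filter on low values the adjusted p in eKD1 was 0.0754, and without a variance trend it was 0.109.

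The 8 RNAs differed widely in level. MALAT1 had a mean of 167 FPKM over the 8 libraries and lay above 94.4% of the 15372 genes tested. PVT1 lay above 93.4%, MIR210HG above 92%, TUG1 above 88.9%, MEG3 above 87.2% and NORAD above 79.7%. NEAT1 (above 34.4%) and H19 (above 21.3%) were below the median tested gene, which had 13.6 FPKM, though both were above the median of 1.78 FPKM of the 1656 tested lncRNAs. The word abundant therefore did not hold for NEAT1 and H19 in these libraries. The libraries were poly-A selected, and the long isoform of NEAT1 and the mature MALAT1 end in a triple helix rather than a poly-A tail, so the levels of both cover what that selection retained. Tests covered genes that reached 1 FPKM in 2 libraries or more. Of the 8 RNAs, 7 were at or above 1 FPKM in every library, and H19 passed only through its 6 hypoxic libraries.

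**Figure D1:**
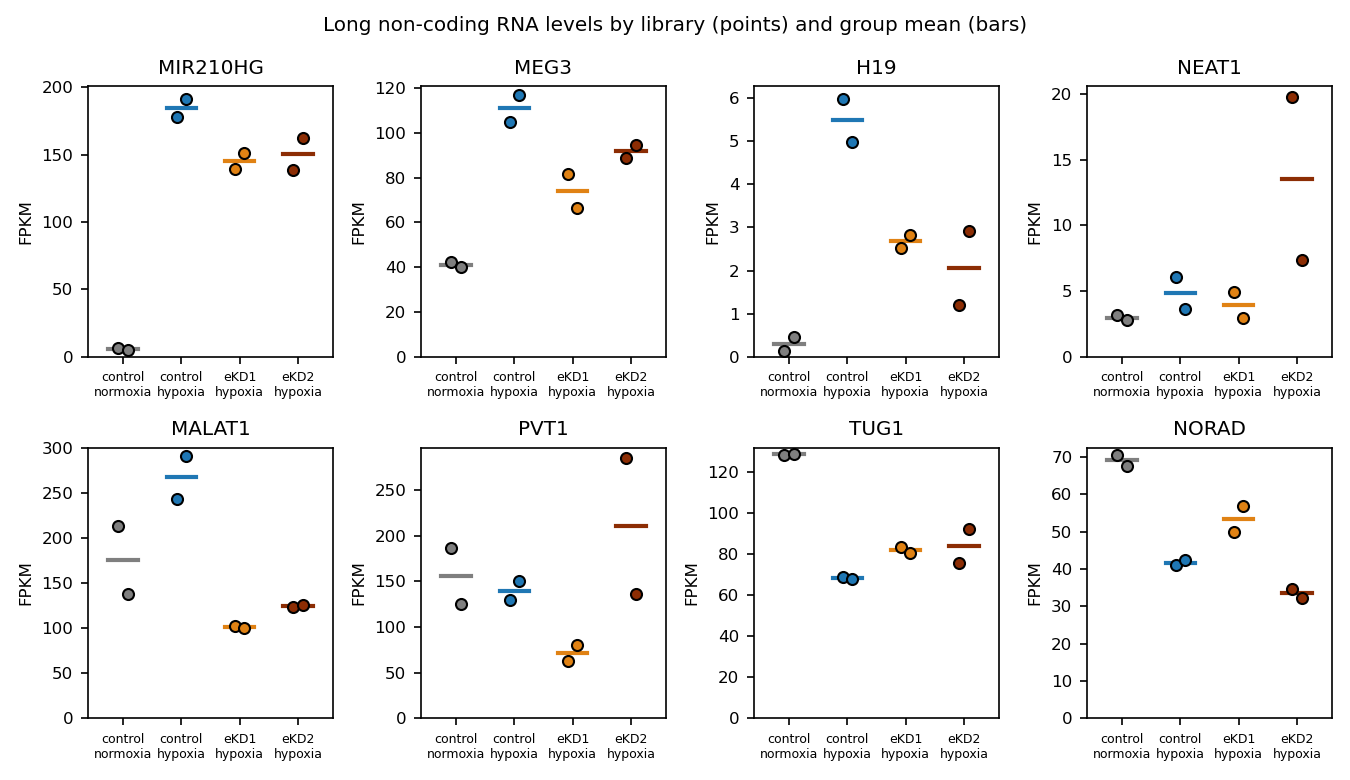
FPKM (y axes, each starting at 0) of the 8 RNAs in the 4 groups (x axes). Points are the 2 libraries of a group and bars their mean. MIR210HG, MEG3 and H19 were low in normoxia, TUG1 and NORAD were high there, and the eKD2 libraries of NEAT1 and PVT1 lay far apart.

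Control hypoxia against control normoxia asked which transcripts respond to low oxygen. Of the 8 RNAs, 5 were called by limma at an adjusted p under 0.05, and 32.2% of all tested genes were called. Without H19, which entered the test only through its hypoxic libraries, 4 of 7 were called. MIR210HG, MEG3 and H19 were higher in hypoxia (3 of 8, against 16.2% of all tested genes), and TUG1 and NORAD were lower (2 of 8, against 16.0%). NEAT1, MALAT1 and PVT1 did not pass the test. Because the 8 RNAs were chosen with earlier results of these data known, these counts are descriptions. The median log2 change was 0.577 for the 8 RNAs and 0.0131 for all tested genes. Setting the FPKM totals of all libraries equal moved the latter to -0.191 and the share of higher genes among all calls from 50.3% to 28.4%, and it left the 5 calls and their directions in place. All fold changes are differences of log2(FPKM + 1), which understates the changes of low genes such as H19 and NEAT1. In bulk RNA, fewer cells with a transcript and less transcript per cell cannot be told apart, which applies to every level given here.

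**Figure D2:**
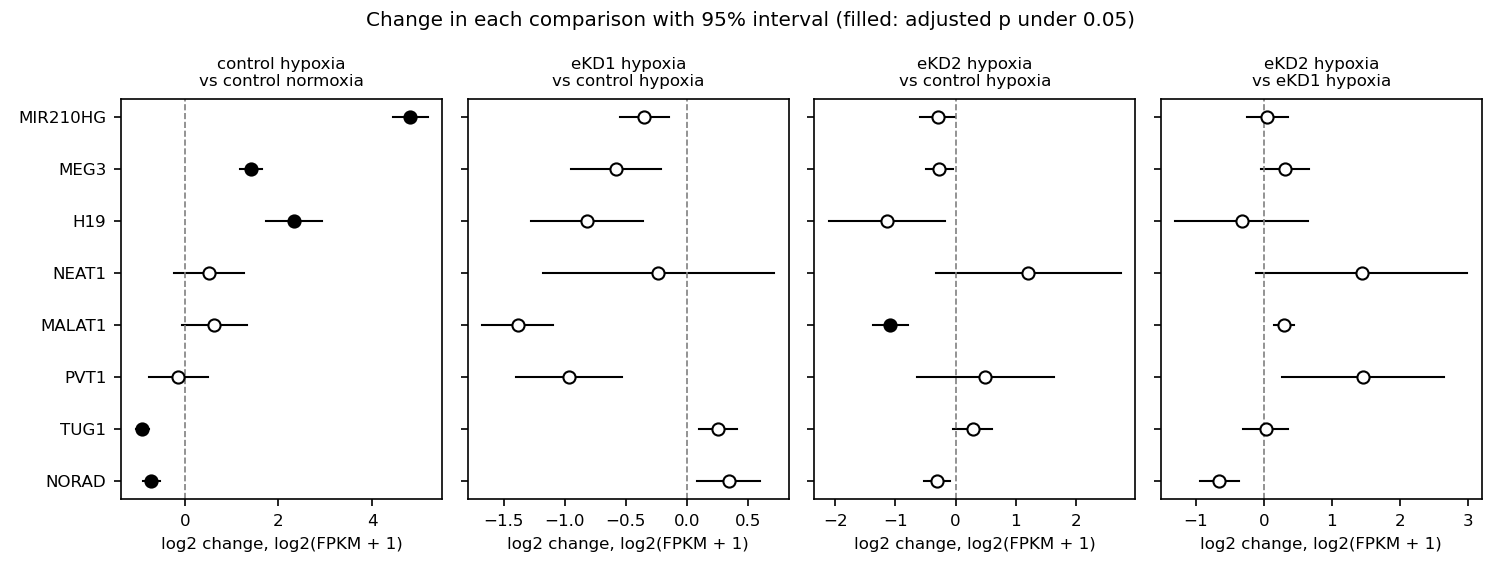
Log2 change (x axes, difference in mean log2(FPKM + 1), with a different range in each panel) of each RNA in the 4 comparisons, with the 95% interval of the limma fit as a line. Filled points passed an adjusted p of 0.05: 5 RNAs in hypoxia, none in eKD1 against control hypoxia, MALAT1 in eKD2 against control hypoxia, and none in eKD2 against eKD1.

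MIR210HG (ENSG00000247095.2_2) is the host transcript of miR-210, which is known to lower mitochondrial metabolism genes in hypoxic cells. It lies on the minus strand at chr11:565657-568457 (GRCh37, GENCODE annotation), and its longest transcript has 2 exons and 2295 nt. The 300 bases around its start site (250 before and 50 after, RefSeq, GRCh38.p14, chr11:568408-568707, minus strand) are shown because they hold the HIF core ACGTG, the only form in capitals here, 170 bases before the start site. The other form of the core, GCGTG, also occurs in this window and is left in lower case. The mature miR-210-3p (RefSeq, GRCh38.p14, chr11:568112-568133, minus strand) and miR-210-5p (chr11:568150-568171) are shown with their seeds, bases 2 to 8, in capitals.
MIR210HG promoter: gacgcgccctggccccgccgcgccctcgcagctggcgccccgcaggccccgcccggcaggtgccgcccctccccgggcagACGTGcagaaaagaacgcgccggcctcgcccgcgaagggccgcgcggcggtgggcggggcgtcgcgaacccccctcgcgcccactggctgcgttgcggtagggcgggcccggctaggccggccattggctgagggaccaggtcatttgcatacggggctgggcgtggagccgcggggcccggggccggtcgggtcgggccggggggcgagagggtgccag
hsa-miR-210-3p: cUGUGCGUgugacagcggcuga
hsa-miR-210-5p: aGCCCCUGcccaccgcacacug

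MIR210HG was at 6.27 and 4.94 FPKM in control normoxia, 178 and 192 in control hypoxia, 139 and 151 in eKD1 and 139 and 163 in eKD2. All 6 hypoxic libraries were far above both normoxic ones, and the eKD1 and eKD2 libraries overlapped each other below control hypoxia. The ratio of the group means of control hypoxia and control normoxia was 32.9, and the log2 change came to 4.82 (SE 0.131, limma adjusted p = 0.00344). Over the 13 alternatives it ran from 4.6 to 5.03, with an adjusted p of at most 0.0381. Among the 1656 tested lncRNAs it was the second largest rise in log2(FPKM + 1), behind LINC02193 (4.93). LINC02193 was named for this rank after its values were seen. The rank is for this scale only, which understates rises from low levels. HIF1A-AS2, at 4.58 on it, rose from 0.657 and 0.448 FPKM to 36.4 and 35.6 FPKM, a larger ratio than that of MIR210HG. The short gene of miR-210 itself was listed at 49.8 FPKM in replicate 1 of control hypoxia, at 129 FPKM in replicate 2 of eKD2 and at 0 in the other libraries, so no value for the mature microRNA is given.

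The 15 coding genes listed as hypoxia-induced were all called higher (median log2 change 2.59). The largest rise was that of CA9, a carbonic anhydrase of the cell surface, with 2 normoxia values of 0 and control hypoxia values of 82.8 and 72.05 FPKM. CA9 and ANKRD37 were below 1 FPKM in both normoxia libraries and passed the filter on low values only through the hypoxic libraries, so their part in the count is a description. The same holds for ADM, at 1.23 and 0.639 FPKM in normoxia, which needed a hypoxic library to pass. ACGTG on either strand (CACGT being its reverse complement) was present in 8 of the 15 promoter windows of these genes, or 53.3%, and in 21.4% of all 35116 RefSeq windows of this length. Of the 9 windows read for 6 of the 8 RNAs, 3 held it, those of MIR210HG, TUG1 and NORAD. The other form of the core, GCGTG on either strand, was present in 9 of the 15 windows, in 7 of the 9 and in 36.5% of all windows. The 9 windows are not separate stretches, since those of MEG3 start at chr14:100825858, 100825868 and 100825882 and overlap. MALAT1 also had more than 1 window. NEAT1 had no window, and windows of the 8 RNAs on chromosome 8, where PVT1 lies, were not read. A match describes these letters only.

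Among 16 other lncRNAs listed as linked to hypoxia, 7 were tested, 3 were called higher and none lower (median 0.352), and with equal FPKM totals 2 were higher and 1 lower. HIF1A-AS2, which is transcribed from the strand opposite to HIF1A, was at 0.657 and 0.448 FPKM in normoxia and at 36.4 and 35.6 FPKM in control hypoxia, a log2 difference of 4.58 (SE 0.139, limma adjusted p = 0.00386). It passed the filter on low values only through the hypoxic libraries, so this rise and its part in the count are a description. It stayed at 39.5 and 39.2 in eKD1 and reached 42.5 and 45.3 FPKM in eKD2. The library kit did not keep the strand, so reads of HIF1A-AS2 and of HIF1A cannot be told apart where they overlap. HIF1A itself changed in the other direction in hypoxia, by -1.58 (limma adjusted p = 0.00809).

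MIR210HG lies in a gene-dense stretch of chromosome 11, and its coding neighbours did not move as a group. Of 6 tested, RASSF7, a Ras association domain protein, rose by 1.36 (limma adjusted p = 0.0438) and PHRF1, a PHD and RING finger protein, fell by 0.68 on the log2 scale (limma adjusted p = 0.0161), with a median of -0.0309. RASSF7 was not called with equal FPKM totals (limma adjusted p = 0.0613), without the filter (0.0764), without a variance trend (0.0597) or without replicate 1 of control hypoxia (0.0509). The genes with the most similar profiles over the 8 libraries were VKORC1 (Pearson r = 0.998), HK1 (0.998) and PFKFB4 (0.997) among 10680 candidates with a mean of at least 5 FPKM, where HK1 and PFKFB4 belong to glycolysis and its control. All such correlations here describe 8 libraries of 4 groups and carry no test.

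H19 and MEG3 are imprinted, expressed from the maternal copy, and each is the non-coding partner of a paternally expressed growth gene, IGF2 and DLK1. H19 (ENSG00000130600.17_3, chr11:2016396-2025782, GRCh37, minus strand) is the precursor of a microRNA. It was at 0.137 and 0.461 FPKM in control normoxia, 5.99 and 4.99 in control hypoxia, 2.53 and 2.83 in eKD1 and 1.203 and 2.92 in eKD2. Every hypoxic library was above both normoxic ones, and the eKD libraries lay below control hypoxia and overlapped each other. The log2 change in hypoxia was 2.33 (SE 0.214, limma adjusted p = 0.00941), and with a pseudocount of 0.1 in place of 1 it reached 3.93. Since H19 entered the test only through its hypoxic libraries, this call is given as a description of its values.

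MEG3 (ENSG00000214548.14_3, chr14:101245747-101327368, GRCh37, plus strand) is known as a growth-restraining RNA linked to p53. It was at 42.1 and 39.9 FPKM in control normoxia, 105 and 117 in control hypoxia, 81.7 and 66.6 in eKD1 and 88.9 and 94.6 in eKD2. The 4 groups did not overlap, with normoxia lowest, then eKD1, eKD2 and control hypoxia. The ratio of means for hypoxia was 2.7 and the log2 change 1.41 (SE 0.0834, limma adjusted p = 0.00707), from 1.17 to 1.49 over the alternatives. A row for the microRNA MIR770, inside MEG3, was at 0 in 5 of the 8 libraries, and other short genes within MEG3 were at or near 0.

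Of 23 imprinted genes listed, 13 were tested, 6 were called higher in hypoxia and 0 lower by limma, with a median of 0.455. With equal FPKM totals 6 were higher and 1 lower. The largest change was that of SLC22A18, an organic cation transporter of the same cluster on chromosome 11 as H19, which went from 1.38 and 0.825 FPKM to 6.87 and 9.85 FPKM (log2 change 2.15, SE 0.257, limma adjusted p = 0.0134). SLC22A18 thus needed a hypoxic library to pass the filter on low values. KCNQ1OT1, also tested, was at 0.451 and 0.410 FPKM in normoxia and passed only through control hypoxia. The SLC22A18 change and the part of both genes in the count are descriptions. IGF2 and DLK1 were below 1 FPKM in all libraries and were not tested. In profile over the 8 libraries, MEG3 was most like GRASP (r = 0.994), PRKAR2B (0.993) and FAM210B (0.992), and H19 most like TMEM107 (0.991), MZT2B (0.989) and BLOC1S1 (0.987).

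NEAT1 and MALAT1 are neighbours on chromosome 11, 52099 bp apart on the plus strand, and both stay in the nucleus. NEAT1 (ENSG00000245532.7_3, chr11:65190245-65213011, GRCh37) is the scaffold of paraspeckles. MALAT1 (ENSG00000251562.7_2, chr11:65265111-65275544) gathers in nuclear speckles, which store splicing factors. NEAT1 was at 3.17 and 2.80 FPKM in control normoxia, 6.05 and 3.61 in control hypoxia, 4.95 and 2.97 in eKD1 and 19.7 and 7.37 in eKD2. The eKD1 libraries overlapped both control groups, and both eKD2 libraries were above all others but lay far apart. Its log2 change in hypoxia was 0.52 (95% interval -0.23 to 1.26, limma adjusted p = 0.211). An increase of more than 1 and a small decrease on the log2 scale both lay within that interval.

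MALAT1 was at 213 and 137 FPKM in control normoxia, 244 and 291 in control hypoxia, 102 and 101 in eKD1 and 123 and 126 in eKD2. No 2 groups overlapped, with eKD1 lowest, then eKD2, normoxia and control hypoxia, and the normoxia libraries differed most from each other. The log2 change in hypoxia was 0.63 (95% interval -0.06 to 1.33, limma adjusted p = 0.132). Without replicate 1 of control normoxia it was 0.95. In a single fit of all 8 libraries, which pools their spread, the limma adjusted p was 0.0454. A partner gene on the opposite strand, TALAM1, overlaps MALAT1, and reads from it cannot be told apart without strand.

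In hypoxia, 16.0% of all tested genes were called lower. Of 16 rows of paraspeckle and NEAT1-binding proteins, 10 were called lower and 1 higher (median -0.386), or 13 and 1 with equal FPKM totals. SFPQ, an essential paraspeckle protein, went from 628 and 595 FPKM to 229 and 232 FPKM, a log2 difference of -1.40 (SE 0.0466, limma adjusted p = 0.00464). The single rise was in a second, low row of MATR3, of 5.17 and 3.92 FPKM in normoxia and 36.04 and 42.7 FPKM in control hypoxia. This row shares its symbol with the main MATR3 row at 604 and 557 FPKM, so its value depends on how reads were divided between them. Of 12 nuclear speckle proteins, 7 were called lower and 1 higher (median -0.245), or 9 and 0 with equal FPKM totals and 6 and 1 with median-of-ratios rescaling. SRSF3, a splicing factor, had a log2 difference of -1.59 (SE 0.0446, limma adjusted p = 0.00344) and SRRM1, another, one of 0.32 (SE 0.0561, limma adjusted p = 0.0265). With equal FPKM totals the SRRM1 change was 0.0764 and was not called (limma adjusted p = 0.404).

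Of 17 tested genes for nuclear RNA decay, m6A marking and 3′ end processing, 8 were called lower in hypoxia and 0 higher by limma (median -0.386), or 13 and 0 with equal FPKM totals (median -0.623), with POP1, a subunit of RNase P, changed the most (-0.98, SE 0.0766, limma adjusted p = 0.0082). RNase P is the enzyme that forms the end of MALAT1. Among 9 tested neighbours of NEAT1 and MALAT1, FRMD8, which lies on one side of NEAT1, rose by 0.56 (SE 0.121, limma adjusted p = 0.0397) and no other was called (median 0.0196). FRMD8 was not called with equal FPKM totals (0.329, limma adjusted p = 0.1), where 1 other neighbour was lower, nor when replicate 1 of control normoxia (limma adjusted p = 0.109) or replicate 1 or 2 of control hypoxia (0.119 and 0.0742) was omitted. In profile, NEAT1 was most like ANTXR2 (r = 0.96), SAE1 (0.95) and ETFDH (0.943), and MALAT1 most like SGK494 (0.966), CROCC (0.954) and PABPC1 (0.952).

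TUG1 and NORAD were both lower in hypoxia. TUG1 (ENSG00000253352.8_3, chr22:31365231-31375381, GRCh37, plus strand) is a widely expressed RNA with roles in chromatin regulation, which GENCODE now lists as protein coding. NORAD (ENSG00000260032.1_3, chr20:34633540-34638940, minus strand) is a single-exon cytoplasmic RNA of 5401 nt that binds PUM2 and is needed for stable chromosome numbers. Its sequence held 15 sites of the form bound by PUM2, TGTANATA on the transcript strand, 10 of them TGTATATA, 4 TGTAAATA and 1 TGTACATA. That is 2.78 per kb. The median of 8886 lncRNA genes with a transcript of at least 1000 nt was 0.0 sites. Of these genes 6 (0.0675%), NORAD among them, held 15 sites or more, and 0.101% held as many per kb or more. The promoter windows of both (RefSeq, GRCh38.p14, 250 bases before and 50 after the start, TUG1 at chr22:30969015-30969314 on the plus strand and NORAD at chr20:36050911-36051210 on the minus strand) are shown because these RNAs fell together and both windows hold CACGTG, in capitals. This palindrome contains ACGTG on both strands and is also the E-box bound by MYC and related factors. It begins 77 bases before the start of TUG1 and 138 bases before that of NORAD, and 7.26% of all windows hold it.
TUG1 promoter: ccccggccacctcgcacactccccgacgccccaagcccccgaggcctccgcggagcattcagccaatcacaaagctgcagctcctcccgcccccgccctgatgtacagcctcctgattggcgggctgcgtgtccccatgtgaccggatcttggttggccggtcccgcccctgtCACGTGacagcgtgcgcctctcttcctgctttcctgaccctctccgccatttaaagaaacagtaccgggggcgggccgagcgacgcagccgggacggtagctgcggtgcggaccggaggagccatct
NORAD promoter: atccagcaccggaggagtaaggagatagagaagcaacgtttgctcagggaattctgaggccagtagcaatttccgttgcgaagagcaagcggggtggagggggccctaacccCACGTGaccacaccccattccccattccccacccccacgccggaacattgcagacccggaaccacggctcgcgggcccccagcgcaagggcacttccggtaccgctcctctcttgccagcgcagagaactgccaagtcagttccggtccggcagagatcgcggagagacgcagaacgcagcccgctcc

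TUG1 was at 128 and 129 FPKM in control normoxia, 68.8 and 67.6 in control hypoxia, 83.2 and 80.4 in eKD1 and 75.7 and 91.9 in eKD2. Its 2 control hypoxia libraries were the lowest and its 2 normoxia libraries the highest, with the overlapping eKD groups between them. Control hypoxia was at 53.1% of normoxia, a log2 difference of -0.90 (SE 0.0509, limma adjusted p = 0.00679), from -1.14 to -0.89 over the alternatives. NORAD was at 70.7 and 67.7 FPKM in control normoxia, 41.0 and 42.5 in control hypoxia, 49.98 and 56.9 in eKD1 and 34.7 and 32.3 in eKD2. None of its 4 groups overlapped, with eKD2 lowest, then control hypoxia, eKD1 and normoxia. Control hypoxia was at 60.3% of normoxia, a log2 difference of -0.72 (SE 0.0653, limma adjusted p = 0.00941), from -0.95 to -0.69.

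PUM2, which binds NORAD, was called lower in hypoxia, at 57.1 and 62.3 FPKM in normoxia and 34.5 and 33.5 FPKM in control hypoxia (log2 change -0.79, SE 0.0779, limma adjusted p = 0.01). Among 11 tested coding neighbours of TUG1, NORAD and H19, 2 were called higher and 2 lower (median 0.212). SELENOM, a selenoprotein of the endoplasmic reticulum near TUG1, had a log2 difference of 1.65 (limma adjusted p = 0.019), given as a description because it was below 1 FPKM in both normoxia libraries and passed the filter only through the hypoxic ones. MORC2, a chromatin ATPase next to TUG1, fell by 1.16 on the log2 scale (limma adjusted p = 0.0158). In profile, TUG1 was most like MPHOSPH10 (r = 0.994), VPS45 (0.992) and HEATR1 (0.987), and NORAD most like ATXN7L3B (0.993), HNRNPH2 (0.986) and TICRR (0.984). MPHOSPH10 and HEATR1 are ribosome biogenesis factors.

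PVT1 (ENSG00000249859.9_3, chr8:128806772-129199347, GRCh37, plus strand) lies beside MYC and is often gained with it in tumours. It was at 187 and 125 FPKM in control normoxia, 130 and 151 in control hypoxia, 63.1 and 80.0 in eKD1 and 286 and 136 in eKD2. Only the eKD1 libraries stood apart, below all others. The log2 change in hypoxia was -0.13 (95% interval -0.77 to 0.50, limma adjusted p = 0.682), and it became 0.154 without replicate 1 of control normoxia. MYC itself, of 2 listed partners tested, was at 209 and 235 FPKM in normoxia and 152 and 149 FPKM in control hypoxia, a log2 difference of -0.56 (SE 0.0746, limma adjusted p = 0.016). In profile, PVT1 was most like CCDC112 (r = 0.938), OSGIN2 (0.935) and CYYR1 (0.933). A small nuclear RNA pseudogene, RNU1-106P, lies within the span of PVT1 at 12.7 to 66.2 FPKM. Any reads shared by both would be divided between their rows. Whether it overlaps an exon of PVT1 was not examined.

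Among 1656 tested lncRNAs, 195 were called higher and 146 lower in hypoxia (20.6%, median 0.0892), and with equal FPKM totals 148 were higher and 216 lower. Of 30 other lncRNAs listed as abundant or tied to cancer, 18 were tested, 2 were called higher and 5 lower (median -0.219), or 1 and 8 with equal FPKM totals. KCNQ1OT1, also on this list, passed the filter on low values only through control hypoxia, so its part is a description. MIR17HG, the host transcript of a microRNA cluster that MYC activates, was at 6.50 and 7.47 FPKM in normoxia and 0.665 and 0.894 FPKM in control hypoxia, a fitted log2 difference of -2.17 (SE 0.17, limma adjusted p = 0.00824). EPB41L4A-AS1 rose from 55.4 and 79.5 FPKM to 156 and 155 FPKM (log2 change 1.22, SE 0.191, limma adjusted p = 0.0212).

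**Figure D3:**
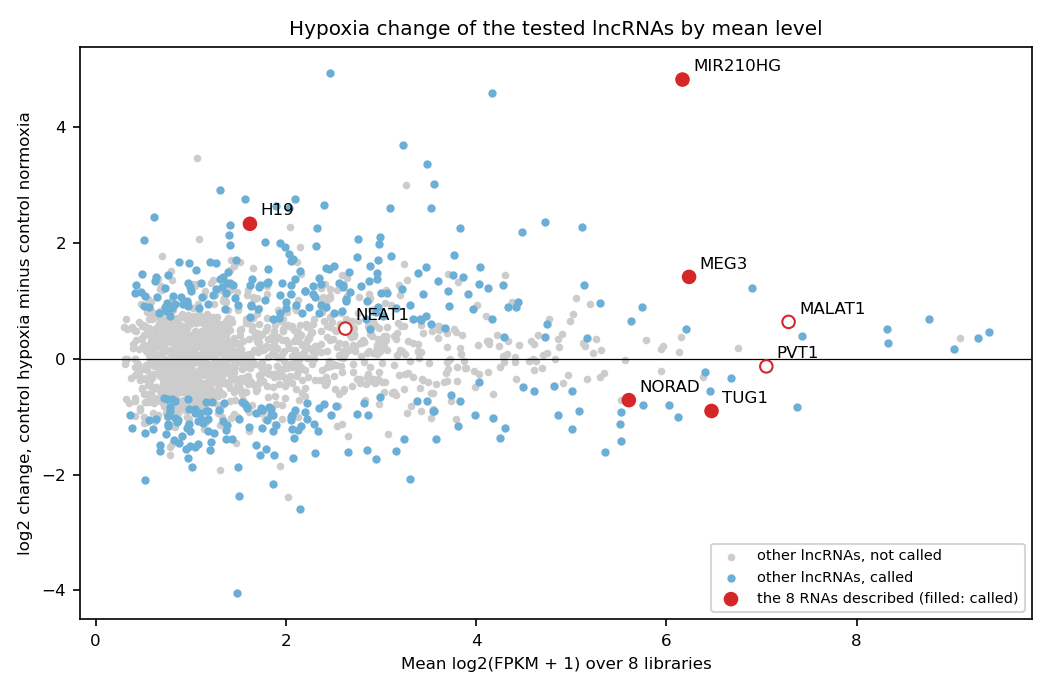
Log2 change in hypoxia (y axis) of the 1656 tested lncRNAs, with TUG1 added, against their mean log2(FPKM + 1) over the 8 libraries (x axis). The 8 RNAs described are in red, filled where called, and other lncRNAs are blue where called and grey where not. MIR210HG is high on both axes, and NEAT1 and H19 lie at low mean levels.

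**Figure D4:**
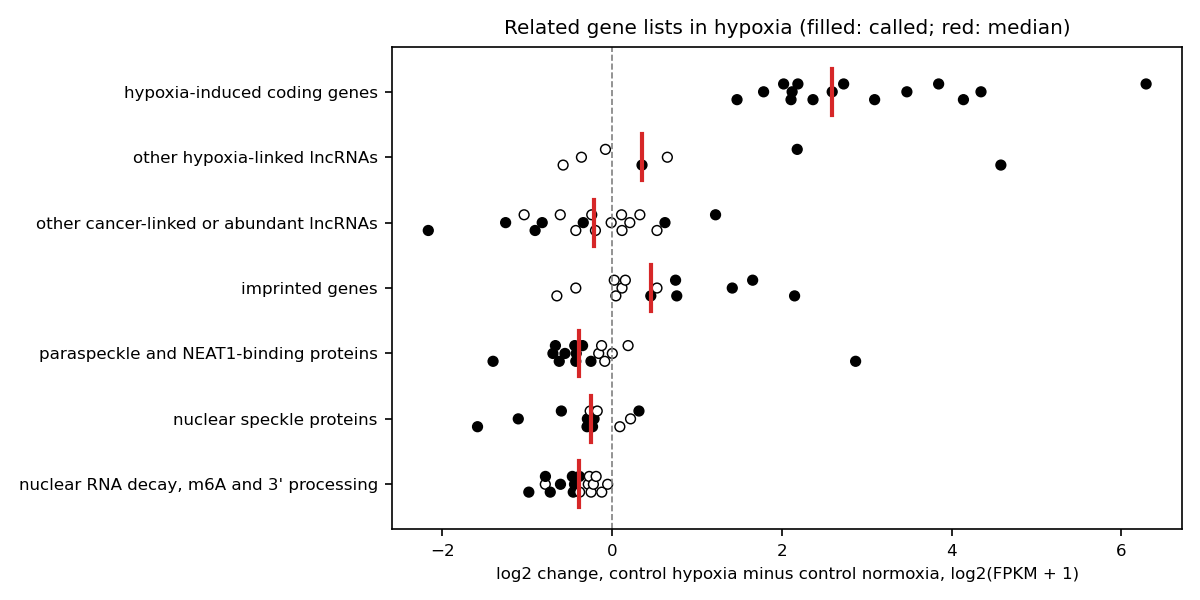
Log2 change in hypoxia (x axis) of the genes of 7 related lists (rows). Each point is a gene, filled where called, and the red bar is the median of the list. The hypoxia-induced coding genes are all to the right of 0 (median 2.59), and the paraspeckle, speckle and RNA decay lists have medians of -0.386, -0.245 and -0.386.

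The eKD1 and eKD2 comparisons asked which transcripts differ when the LOXHD1 enhancer is repressed in hypoxia. Both use the same 2 control hypoxia libraries that also entered the hypoxia comparison, so a chance value in those libraries moves all 3 comparisons. In eKD1, limma called 0 of the 8 RNAs, against 0.0651% of all tested genes. At an unadjusted p under 0.05, 7 of the 8 passed, where 21.7% of all tested genes did. In eKD2, 1 of the 8 was called, against 9.61% of all tested genes, and 5 passed an unadjusted p of 0.05, against 32.8%. As in hypoxia, these counts describe RNAs chosen with earlier results known. The median log2 change of the 8 RNAs was -0.463 in eKD1 and -0.282 in eKD2, and the medians of all tested genes were 0.00245 and 0.0518.

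MALAT1 was the RNA called in eKD2. Its level was 46.6% of control hypoxia in eKD2, a log2 change of -1.09 (SE 0.102, 95% interval -1.38 to -0.80, limma adjusted p = 0.0289). In eKD1 it was at 37.9%, with a log2 change of -1.39 (SE 0.102, 95% interval -1.68 to -1.10, limma adjusted p = 0.102), which did not pass. All 4 knockdown libraries were below both libraries of control hypoxia and both of control normoxia. The eKD2 call was lost under 7 of 13 alternatives, among them the omission of any single library (limma adjusted p of 0.0602 without replicate 1 and 0.0925 without replicate 2 of control hypoxia, and 0.0807 and 0.0734 without replicate 1 and 2 of eKD2). In the fit that pools the spread of all 8 libraries, the eKD1 change passed as well (limma adjusted p = 0.0226).

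The values of the other RNAs did not pass the test against control hypoxia. MIR210HG was at 78.5% of control hypoxia in eKD1 (log2 change -0.35, 95% interval -0.55 to -0.14, limma adjusted p = 0.135) and at 81.6% in eKD2 (-0.30, -0.58 to -0.01, limma adjusted p = 0.146). It thus remained at 25.9 and 26.9 times the mean of control normoxia. H19 was at 48.7% in eKD1 (-0.82, -1.28 to -0.35, limma adjusted p = 0.131) and 37.5% in eKD2 (-1.14, -2.11 to -0.17, limma adjusted p = 0.116). Without replicate 2 of eKD2 the latter change was -1.55. MEG3 was at 66.9% in eKD1 (-0.58, -0.95 to -0.21, limma adjusted p = 0.147) and 82.8% in eKD2 (-0.27, -0.50 to -0.04, limma adjusted p = 0.117). In the pooled fit, MEG3 in eKD1 passed with an adjusted p of 0.0437.

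TUG1 had a log2 change of 0.26 in eKD1 (95% interval 0.10 to 0.42, limma adjusted p = 0.14) and 0.29 in eKD2 (-0.04 to 0.61, limma adjusted p = 0.182). The latter was 0.43 without replicate 1 of eKD2. NORAD had a log2 change of 0.35 in eKD1 (0.09 to 0.60, limma adjusted p = 0.168) and of -0.31 in eKD2 (-0.52 to -0.10, limma adjusted p = 0.0836). NORAD was thus above control hypoxia in both eKD1 libraries and below it in both eKD2 libraries, and neither difference passed.

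NEAT1 and PVT1 were the RNAs whose eKD2 duplicates differed most on the log2(FPKM + 1) scale. NEAT1 had a log2 change of -0.23 in eKD1 (-1.18 to 0.72, limma adjusted p = 0.725) and of 1.21 in eKD2 (-0.33 to 2.74, limma adjusted p = 0.22). The eKD2 value became 1.86 without replicate 2 of eKD2, and was 0.554 at its lowest over the alternatives. PVT1 was at 51.1% of control hypoxia in eKD1 (-0.97, -1.40 to -0.53, limma adjusted p = 0.118). Its eKD2 change was 0.49 (-0.64 to 1.63, limma adjusted p = 0.449), and it was -0.04 without replicate 1 of eKD2, the library at 286 FPKM.

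The related lists were tested in the same fits. In eKD1, limma called 0 genes in the lists described here, and 1 of the 1656 tested lncRNAs, which was lower. In eKD2, 48 lncRNAs were called higher and 42 lower (5.43%). Of all eKD2 calls 60.3% were higher, a share that was 46.3% with median-of-ratios rescaling and 77.5% with equal FPKM totals, and the lncRNAs then split into 43 higher and 53 lower, and 79 higher and 42 lower. Nuclear speckle proteins had 1 gene higher and 5 lower of 12 (median -0.323), or 1 and 8 with median-of-ratios rescaling and 1 and 3 with equal FPKM totals, with SRSF3 at 0.52 (SE 0.0445, limma adjusted p = 0.0282) and PNN, pinin, at -0.70 (SE 0.0687, limma adjusted p = 0.0305). Of the paraspeckle proteins, SMARCA4, a chromatin remodeller that binds NEAT1, was the 1 row called of 16 (0.27, limma adjusted p = 0.0471, median of the list 0.146), and it was not called with median-of-ratios rescaling (0.197, limma adjusted p = 0.0709), where 1 other row of the list was lower. With equal FPKM totals 6 rows of the list were higher and 0 lower by limma. Among NORAD-binding proteins, PUM2 was higher (0.49, limma adjusted p = 0.0486) and RBMX lower (-0.56, limma adjusted p = 0.0284), and with median-of-ratios rescaling PUM2 was not called (0.421, limma adjusted p = 0.0565).

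Of the RNA decay and processing genes, ZCCHC8, part of a complex that feeds nuclear RNA to the exosome, was higher in eKD2 (0.73, limma adjusted p = 0.0331) and POP1 lower (-0.65, limma adjusted p = 0.0351), 2 of 17 tested, with 1 higher and 2 lower under median-of-ratios rescaling and 3 higher and 1 lower with equal FPKM totals. FRMD8, beside NEAT1, was lower (-0.80, limma adjusted p = 0.0347), and 0 of the neighbours of MIR210HG, TUG1, NORAD and H19 were called by limma. MYC was at 275 and 248 FPKM in eKD2, above its 152 and 149 FPKM in control hypoxia (0.79, SE 0.0675, limma adjusted p = 0.028), and at 230 and 241 FPKM in eKD1, which was not called. Of the imprinted genes, GRB10 was higher (0.74, limma adjusted p = 0.0331) and PEG10 lower (-0.67, limma adjusted p = 0.0284). Of the hypoxia-induced coding genes, 4 of 15 were higher, PDK1 the most (0.81, limma adjusted p = 0.0305), and of the other hypoxia-linked lncRNAs DARS-AS1, at 53.0 and 43.9 FPKM against 28.7 and 26.3 FPKM in control hypoxia (0.79, SE 0.124, limma adjusted p = 0.0451). The number of eKD2 calls rested on the settings of the fit, since 25 genes in all were called without the filter on low values and 28 without a variance trend, in place of 1477. None of the calls named here for list genes in eKD2 held under either of these settings. Those of FRMD8, SMARCA4 and PUM2 were also lost when any 1 of the 4 libraries was omitted, with limma adjusted p of 0.0663 to 0.0938, 0.0654 to 0.0927 and 0.0559 to 0.105. The call of ZCCHC8 was lost without either control hypoxia library or eKD2 replicate 1 (0.0613, 0.0559 and 0.0577), that of DARS-AS1 without either control hypoxia library (0.0508 and 0.0633), that of PDK1 without replicate 1 of control hypoxia or of eKD2 (0.0596 and 0.0546) and that of SRSF3 without control hypoxia replicate 2 (0.0546).

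Comparing eKD2 with eKD1 directly, limma called 0 of the 8 RNAs, against 0.403% of all tested genes, and 3 passed an unadjusted p of 0.05, against 23.6%. The eKD1 libraries of NORAD, at 49.98 and 56.9 FPKM, were above its eKD2 libraries, at 34.7 and 32.3 FPKM, a log2 difference of -0.66 (SE 0.0997, limma adjusted p = 0.0874). This passed in the pooled fit (limma adjusted p = 0.0125), and the difference was -0.75 without replicate 1 of eKD1. MALAT1 was higher in both eKD2 libraries than in both eKD1 libraries by 0.30 (95% interval 0.15 to 0.44, limma adjusted p = 0.0963), and PVT1 by 1.46 (0.27 to 2.65, limma adjusted p = 0.164). The PVT1 value was 1.99 without replicate 2 of eKD2.

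The intervals of the other RNAs between the guides all included 0. NEAT1 differed by 1.44 (-0.11 to 2.99, limma adjusted p = 0.231), MEG3 by 0.31 (-0.04 to 0.66, limma adjusted p = 0.248) and H19 by -0.32 (-1.30 to 0.65, limma adjusted p = 0.609). MIR210HG differed by 0.05 (-0.25 to 0.35, limma adjusted p = 0.801) and TUG1 by 0.03 (-0.30 to 0.36, limma adjusted p = 0.91), so that for both a difference beyond about 0.36 on the log2 scale lay outside the interval. Among the related genes, SRSF2, a splicing factor of nuclear speckles, was called, with eKD1 values of 378 and 375 FPKM and eKD2 values of 198 and 211 FPKM (log2 change -0.88, SE 0.0531, limma adjusted p = 0.0461).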

How the data were processed

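RNA was sequenced from 8 SK-N-MC libraries. The titles of the samples gave their groups and replicate numbers. Per the study's methods, single-end reads of poly-A selected, unstranded libraries were aligned to GRCh37 with STAR. The authors deposited FPKM values computed with cufflinks and cuffnorm, in a table of 60332 genes, and the scaling between libraries is not given in the sources used here. Cufflinks divides reads between overlapping genes.

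The study tested read counts. Here log2(FPKM + 1) was tested with limma 3.58.1 in R 4.3.3 (eBayes with a variance trend), each comparison on its own 2 against 2 libraries. The test covered the 15372 genes that reached 1 FPKM in 2 libraries or more, with Benjamini-Hochberg adjustment over all of them, two-sided, and called at an adjusted p under 0.05. The fit was tested on simulated data.

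The table holds no read totals, so the absolute depth is unknown and no interval or floor from counts is given. Relative depth came from the size of the smallest FPKM steps.

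The 8 RNAs and all gene lists were chosen with earlier results of these data known, and the lists are described by counts and medians. Results for 1 listed gene are not reported here. The text names all 8 RNAs, the 3 genes most alike to each in Pearson r, the called gene of each list with the largest change in each direction, and LOXHD1. Positions and gene types came from GENCODE on GRCh37, which matched 98.7% of tested genes, and promoter and microRNA sequences from RefSeq on GRCh38.p14. Windows were read for 6 of the 8 RNAs, since NEAT1 had none and windows on chromosome 8, where PVT1 lies, were left out.

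Alternatives to these settings were no filter or one at a mean of 5 FPKM, a pseudocount of 0.1, small RNAs left out, equal FPKM totals, median-of-ratios rescaling, a single fit of all 8 libraries, no variance trend, a replicate block and the omission of each library.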

Additional observations from a re-analysis of the deposited data

Results flagged for a closer look

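A pair of results was flagged for a difference between the guides, and only that of SRSF2 was called. SRSF2, a splicing factor of nuclear speckles, was 0.88 lower in eKD2 than in eKD1 on the log2 scale (log2 change -0.879, limma adjusted p = 0.0461), with both eKD1 libraries (378 and 375 FPKM) above and both eKD2 libraries (198 and 211 FPKM) below control hypoxia (340 and 308 FPKM). The call was lost without the filter on low values (limma adjusted p = 0.0909), without a variance trend (0.109) and with a replicate block (0.207).

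NORAD had both eKD1 libraries above and both eKD2 libraries below the 2 libraries of control hypoxia. The difference between the guides, a log2 change of -0.655, was tested directly and did not pass (limma adjusted p = 0.0874, from 0.0125 to 0.207 over the alternatives).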

How the results depend on the processing

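Of 412 values of the 8 RNAs under the alternatives, 386 kept their direction and side of the threshold, 7 lost a call (all MALAT1 in eKD2), 10 gained a call and 9 changed sign. The 5 hypoxia calls held under every alternative in which the RNA was tested. H19 was not tested at a mean of 5 FPKM. Sign changes were PVT1 in hypoxia (0.154 without control normoxia replicate 1, with a range of -0.42 to 0.154 over omitted libraries), NEAT1 in eKD1 (0.0751 without control hypoxia replicate 1 and 0.0613 without eKD1 replicate 2, range -0.538 to 0.0751) and PVT1 in eKD2 (-0.04 without eKD2 replicate 1, range -0.04 to 1.03). Between the guides they were TUG1 (-0.0209 with median-of-ratios rescaling, -0.11 without eKD2 replicate 2, range -0.11 to 0.167), MIR210HG (-0.00695 without eKD1 replicate 1, -0.0637 without eKD2 replicate 2, range -0.0637 to 0.166) and H19 (0.0934 without eKD2 replicate 1, range -0.738 to 0.0934). None of these had passed the test.

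The number of the 8 RNAs called by limma changed as follows. In eKD1 it was 0, and 2 in a single fit of all 8 libraries. In eKD2 it was 1, and 0 without the filter, without a variance trend and with a replicate block, and 0 to 2 when a library was omitted. Between the guides it was 0, 1 in the single fit and 0 to 1 when a library was omitted. In hypoxia it stayed between 4 and 6, and was 5 to 6 when a library was omitted.

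The number of all genes called was 4946 in hypoxia and 2570 with a replicate block. In eKD1 it was 10, with 6 without the filter, without small RNAs or without a variance trend, 761 in the single fit, and 20 to 41 when a library was omitted. In eKD2 it was 1477, with 25 without the filter, 28 without a variance trend, 2601 in the single fit, and 670 to 1034 when a library was omitted. Between the guides it was 62, with 13 without the filter, 105 at a mean of 5 FPKM, 5 without a variance trend, 1391 in the single fit, and 190 to 320 when a library was omitted. With a library omitted, the fit took in all groups and pooled their spread. The lone sample is then assumed to vary like the other groups. Calls gained or lost there cannot be credited to the omission alone. The cause of these changes was not tested.

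The replicate numbers come from the titles, and no label says that they mark a shared batch or day. Deviations of same-numbered libraries from their group means correlated at -0.0499 to 0.0373 over the tested genes. With 2 libraries a group, these values cannot tell whether same-numbered samples shared a batch or day. With a replicate block, 0 genes were called by limma in eKD1, eKD2 and between the guides. Of 544 values of the other named genes under alternatives, 441 kept direction and side, 102 lost a call, 1 gained one and 0 changed sign.

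With 2 libraries a group, 95% intervals of NEAT1 and PVT1 spanned up to about 3 log2 units in eKD2. Depth is known only relative to other libraries, and FPKM of H19 and NEAT1 are low. Poly-A selection and the lack of strand limit the values of NEAT1, MALAT1 and HIF1A-AS2.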
